A study of Mus musculus with 21 samples.

Results

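Tumours grown from a 1:1 mixture of Py8119 and Py117 cells (mixed tumours, 5 arrays) were compared with tumours grown from Py117 cells alone (Py117 tumours, 5 arrays). These 10 of the 21 arrays of the series were chosen by sample title. Both lines were derived from tumours of transgenic MMTV-PyMT mice, in which a mammary promoter drives the polyomavirus middle T oncogene, and the labels describe them as clones. Every tumour came from 1000000 cells placed in mammary fat pad number 4 in 50% matrigel, was left untreated and was taken on the day on which radiation would have been given. The series calls Py117 tumours sensitive and Py8119 tumours resistant in their immune response to radiation, and the mixture places both lines in the same host tissue. Host strain, sex and age are not given in the sources used here. Py8119 tumours (5 arrays) entered the same fit and are quoted where they show on which side of the parental tumours a mixed tumour lay. Arrays of Py117 and Py8119 cells in culture (3 each) were used to choose genes that differ between the lines without host tissue. The questions were what the presence of Py8119 cells changed relative to a Py117 tumour, and which features of a Py117 tumour persisted.

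Whole tumour RNA holds transcripts of the cancer cells and of host vessels, fibroblasts, fat and immune cells. Epithelial cells hold together through E-cadherin, EpCAM, claudins and desmosomes, while mesenchymal cells carry vimentin and N-cadherin and transcription factors such as ZEB1 and SNAI2 that bind the E-box in promoters of epithelial genes. Interferon-stimulated genes fall into overlapping programmes. Type I interferons, made by many cells that sense nucleic acids, act mainly through the interferon-stimulated response element, and interferon-gamma, made by T and NK cells, drives the chemokines CXCL9 and CXCL10, guanylate-binding proteins and antigen presentation. Recruitment and survival of macrophages depend on ligands such as CCL2 and CSF1.

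Values are log2 signals, so a difference of 1 is a 2-fold change. Group levels are means ± SD over 5 tumours. Differences are mixed minus Py117 tumours, with the standard error and the Benjamini-Hochberg adjusted p from limma over 22180 genes, and a gene is called at an adjusted p under 0.05. A gene is termed kept when the 95% interval of its difference lay within 1 log2 unit on either side of 0. Mixed tumours correlated with each other across genes with r between 0.989 and 0.994 and with Py117 tumours with r between 0.944 and 0.965. Py117 tumours varied more among themselves, with a median gene SD of 0.205, against 0.151 in mixed tumours. Olfactory and vomeronasal receptor genes (1394 genes) showed a median signal of 3.27 and a 95th percentile of 5.31, which serves as the level of background. In whole tumours, fewer cells of a type and less RNA per cell cannot be told apart. The labels name the arrays of a group biological replicates. The p-values rest on the spread between replicates, pooled for each gene over mixed, Py117 and Py8119 tumours and moderated across genes by limma.

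The mixed tumours differed from Py117 tumours in 8007 of 22180 genes (36.1%), of which 4263 were higher (19.2%) and 3744 lower (16.9%), while 44.3% had an unadjusted p under 0.05. For 5376 called genes (24.2%) the 5 and 5 values did not overlap. A difference of at least 1 log2 unit was reached by 630 higher genes (2.84%) and 824 lower genes (3.72%), and 19271 genes (86.9%) were kept. In the same fit only 394 genes (1.78%) separated mixed from Py8119 tumours, 358 higher (1.61%) and 36 lower (0.162%) in the mixed tumours. The median difference of all genes from Py117 tumours was -0.03. With arrays centred on their medians 5075 genes were higher and 2952 lower than in Py117 tumours, and with quantile normalisation 4277 and 3551. List counts below are read beside the main shares of 19.2% higher and 16.9% lower, which thus depend on the normalisation. Lists for which limma called no gene higher also had none at an unadjusted p under 0.05, apart from 2 skeletal muscle genes. Of the lists with none called lower, mast cell and DNA repair genes had 1 each at that level.

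The genes with the largest increases among those without overlap were led by Ankrd1 and Msln. Ankrd1, a nuclear ankyrin protein and transcriptional target of YAP, had signals of 11.12, 11.36, 11.21, 11.20 and 11.29 in mixed tumours 1 to 5, against 5.30, 6.23, 6.45, 5.91 and 5.86 in Py117 tumours 1 to 5. That is 39.0-fold higher in the mixed tumours, with no overlap between the groups (log2 difference 5.29 ± 0.16, adjusted p = 2.01e-13). Msln, which encodes the surface protein mesothelin, was at 9.18 ± 0.09 in mixed and 5.14 ± 0.16 in Py117 tumours (log2 difference 4.04 ± 0.09, adjusted p = 1.26e-14). S100a4, a calcium-binding protein of motile and mesenchymal cells, stood at 11.57, 11.24, 11.33, 11.20 and 11.19 in the mixed tumours and 7.64, 7.67, 7.63, 7.27 and 7.73 in the Py117 tumours, a separation of more than 3 log2 units (log2 difference 3.72 ± 0.13, adjusted p = 1.37e-12). Cdh2, N-cadherin, rose by 3.59 (adjusted p = 9.36e-11). Tfap2b, an AP-2 transcription factor, rose by 3.61 and Tenm3, a teneurin of cell adhesion, by 3.64. The muscle enolase Eno3 was 3.35 higher, and Brinp3, Dynap and Gpr149 were higher by 3.91, 3.65 and 3.08. Their Py117 tumour means lay at 5.48, 6.32 and 4.73, so the Gpr149 difference is bounded by background, as is that of Msln.

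The largest decreases among genes without overlap included Slc28a3, Thrsp, Cilp and Ehf. Slc28a3, a nucleoside transporter, had signals of 5.54, 5.99, 5.87, 5.59 and 5.78 in mixed tumours 1 to 5, against 9.98, 8.80, 7.88, 10.11 and 10.19 in Py117 tumours 1 to 5, and every mixed tumour lay below every Py117 tumour (log2 difference -3.64 ± 0.32, adjusted p = 9.53e-08). Ehf, an ETS factor of epithelial differentiation, was at 6.82 ± 0.31 in mixed and 9.97 ± 0.29 in Py117 tumours (log2 difference -3.15 ± 0.15, adjusted p = 7.49e-11), which is 11.3% of the Py117 level. The surface protein Plet1 fell by 3.01 and the potassium channel Kcnk1 by 2.92 on the log2 scale. Wif1, a secreted Wnt inhibitor, fell by 2.92, the carbonic anhydrase Car12 by 2.95, Capn6 of the calpain family by 3.08 and the cartilage matrix protein Cilp by 3.25. Of these, Thrsp, Ehf, Plet1, Car12, Wif1, Capn6 and Kcnk1 stayed above Py8119 tumours, whereas Slc28a3 differed from them by 0.45 ± 0.32, adjusted p = 0.577, and Cilp by 0.10 ± 0.24, adjusted p = 0.886.

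Genes that separate the lines in culture were followed in the mixed tumours. The part of host cells in their tumour signal was not tested. In culture, 119 genes (0.537% of all) were at least 2 log2 units higher in Py8119 cells (Py8119-line genes) and 313 (1.41%) at least 2 higher in Py117 cells (Py117-line genes). In mixed against Py117 tumours, 106 of the 119 Py8119-line genes were higher and 4 lower, with a median difference of 1.44. Of the 313 Py117-line genes, 275 were lower and 5 higher, with a median of -1.57. Among all genes the shares higher and lower were 19.2% and 16.9%. The signal of Py117-line genes was reduced but not gone. Of the 313, 134 were still higher in mixed than in Py8119 tumours, against 1.61% of all genes, and none was lower.

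**Figure D1:**
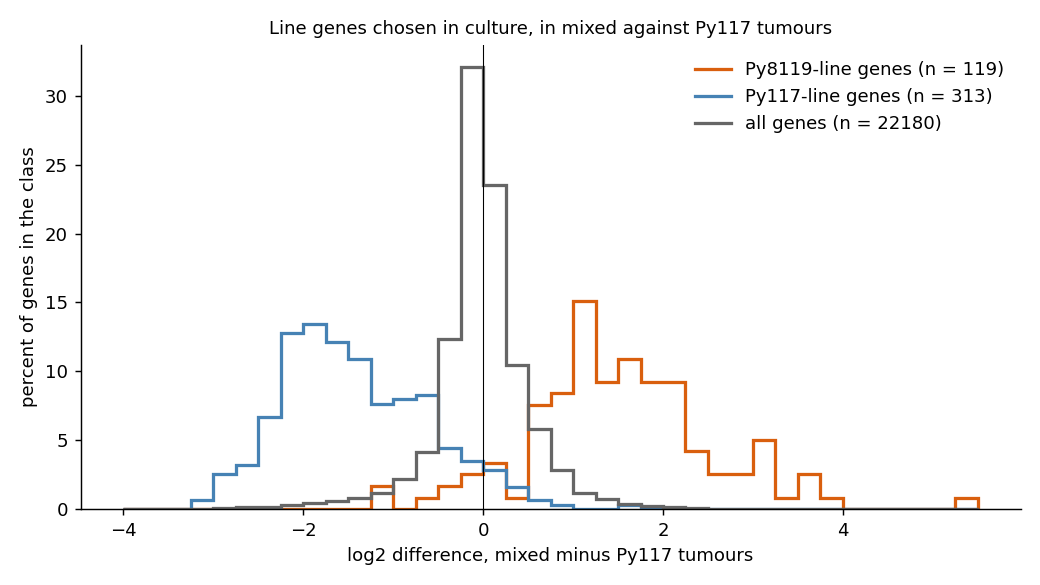
Distribution of the log2 difference (x axis, mixed minus Py117 tumours, bins of 0.25) as the percent of genes in each class (y axis) for 119 Py8119-line genes, 313 Py117-line genes and all 22180 genes. Py8119-line genes lie mostly right of 0, with a median of 1.44, and Py117-line genes mostly left, with a median of -1.57.

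On a linear scale on which the mean of Py117 tumours is 0% and that of Py8119 tumours 100%, the 5 mixed tumours stood at 91.9, 83.6, 85.0, 86.7 and 88.0% as the median over 330 line genes (mean 87.1 ± 3.19, SD). All 5 mixed tumours, implanted at equal cell numbers of the lines, thus lay nearer to Py8119 than to Py117 tumours. Py8119-line genes placed the mixed tumours at 94.3 ± 4.73% and Py117-line genes at 86.3 ± 3.45%. The position is a share of signal and not a count of cells, and on the log2 scale its mean was 75.4%. Py117-line genes with Py117 tumour signals under 8, from 8 to 10 and from 10 to 12 had median positions of 85.1, 86.5 and 85.8%. The 4 brightest genes, at 12 or more, had 70.4%. Signal compression on the array was not tested.

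Among the 6 genes with the largest culture difference on each side, the Py8119-line genes Tfap2b, Slc38a1, Praf2, Parvb, Grem1 and Sprr1a were higher in the mixed tumours. The increase was 2.08 for the glutamine transporter Slc38a1, 1.67 for the focal adhesion protein Parvb, 2.96 for Sprr1a, 2.03 for Praf2 and 1.15 for Grem1, a secreted BMP antagonist. On the other side, Serpinb5, the serpin maspin of mammary epithelium, was at 7.14 ± 0.28 in mixed, 9.40 ± 0.34 in Py117 and 4.09 ± 0.18 in Py8119 tumours, or 20.9% of the Py117 level (log2 difference -2.26 ± 0.16, adjusted p = 5.26e-09). Mpzl2, an epithelial junction protein, fell by 2.73 (adjusted p = 1.40e-09). Timp3, an inhibitor of metalloproteinases, had signals of 8.21, 9.08, 8.57, 9.10 and 9.11 in mixed tumours 1 to 5, against 10.80, 11.28, 11.06, 10.83 and 10.50 in Py117 tumours 1 to 5. The groups did not overlap (log2 difference -2.08 ± 0.24, adjusted p = 2.31e-06), and the mixed tumours still exceeded Py8119 tumours (difference 2.51 ± 0.24, adjusted p = 5.39e-06).

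Kcnma1, the pore-forming subunit of the large-conductance calcium-activated potassium channel, was the exception among these 6 Py117-line genes. Its signals were 13.36, 13.43, 13.52, 13.44 and 13.43 in mixed tumours 1 to 5, against 13.42, 13.40, 13.34, 13.32 and 13.42 in Py117 tumours 1 to 5, and the groups overlapped (log2 difference 0.06 ± 0.12, adjusted p = 0.764, 95% interval -0.21 to 0.32). Py8119 tumours had 5.94, 5.87, 5.93, 6.71 and 6.18, all more than 6 log2 units lower. These signals lie close to the highest value of any tumour array, 13.6 to 13.8, where differences can be compressed. The other Kcnma1 probe set averaged 4.18, at the level of background. It was at 4.00 in mixed, 4.35 in Py117 and 4.13 in Py8119 tumours, and at 4.35 in Py117 and 4.11 in Py8119 culture. It thus did not show the gap between the lines, and the Kcnma1 values here rest on the brighter probe set alone. Only 2 other Py117-line genes with a position stood under 50%, Mir5103 at 41.6% and the activin antagonist Fst at 45.6%, both named after their values were seen. Igfbp5, a secreted IGF-binding protein, also remained high: it was at 11.25 ± 0.20 in mixed, 13.15 ± 0.10 in Py117 and 6.07 ± 0.35 in Py8119 tumours, lower than in Py117 tumours (log2 difference -1.91 ± 0.14, adjusted p = 1.03e-08) but above Py8119 tumours (difference 5.18 ± 0.14, adjusted p = 7.15e-14).

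The epithelial adhesion genes fell almost without exception. Of the 24 measured genes of this list none was higher and 23 were lower (median -1.41), against 16.9% lower and a median of -0.03 over all genes. In 11 of the 24 the mixed tumours remained above Py8119 tumours, where 1.61% of all genes did, and 5 were kept. Promoters of this list carry the E-box CAGGTG (searched on both strands, where it reads CACCTG) more often than most. RefSeq promoters, which span 250 bases before to 50 after the start site on GRCm38.p6, held it in 12 of 14 list genes with a promoter (85.7%), 20.2% of all 32851 promoters and 22.3% of the measured genes with one. A match describes the sequence and is not a binding site. The windows below, with the E-box in capitals, belong to the adhesion gene Epcam, the desmosomal plaque gene Dsp, both lower, and the keratin gene Krt8, which was kept.
Epcam (chr17:87635772-87635817, plus strand): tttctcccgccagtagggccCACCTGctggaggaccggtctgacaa
Dsp (chr13:38151277-38151322, plus strand): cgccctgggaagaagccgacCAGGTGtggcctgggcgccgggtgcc
Krt8 (chr15:102004428-102004473, minus strand): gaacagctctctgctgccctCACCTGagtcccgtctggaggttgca

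Epcam, the epithelial cell adhesion molecule, had signals of 7.24, 7.81, 8.39, 7.61 and 7.65 in mixed tumours 1 to 5, against 10.07, 10.27, 10.06, 10.23 and 10.73 in Py117 tumours 1 to 5. The mixed values lay together in a band of their own, below each Py117 tumour (log2 difference -2.53 ± 0.21, adjusted p = 5.59e-08) and above Py8119 tumours, at 5.13 ± 0.45 (difference 2.61 ± 0.21, adjusted p = 7.25e-07). Dsp, desmoplakin, was at 6.53 ± 0.36 in mixed, 9.45 ± 0.24 in Py117 and 4.77 ± 0.16 in Py8119 tumours, a fall to 13.2% of the Py117 level. Cdh1, E-cadherin, fell by 2.26 (adjusted p = 2.54e-08) and stayed above Py8119 tumours (difference 1.38 ± 0.18, adjusted p = 1.93e-04). Esrp1, a splicing regulator of epithelial isoforms, was at 7.32, 8.18, 7.97, 7.94 and 7.93 in the mixed tumours and 10.70, 10.63, 10.34, 10.87 and 10.62 in the Py117 tumours, without overlap (log2 difference -2.77 ± 0.13, adjusted p = 7.96e-11). The membrane protease St14, matriptase, fell by 2.69 and the surface glycoprotein Cd24a by 2.12. Krt8, the simple-epithelial keratin, was the list gene not called, at 9.74 ± 0.14 in mixed, 9.86 ± 0.37 in Py117 and 9.56 ± 0.10 in Py8119 tumours (difference -0.12, 95% interval -0.41 to 0.17). Krt8 was high in culture of both lines as well, at 9.81 ± 0.15 in Py8119 and 10.76 ± 0.05 in Py117 culture (SD, n = 3 each). Spint1, a matriptase inhibitor, fell by only 0.69 and was kept. Its call was lost when the mean of the adipocyte genes was added to the fit.

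Other mammary programmes fell too. Of 12 measured mammary lineage regulators, 10 were lower and none higher (median -1.04). Elf5, the alveolar ETS factor, fell by 2.26 to a level under background, Erbb3 by 2.14 and the pioneer factor Foxa1 by 1.77. Gata3, the luminal GATA factor, did not follow them: it was at 8.27 ± 0.24 in mixed and 8.23 ± 0.32 in Py117 tumours, with a 95% interval of -0.25 to 0.34 for the difference, and at 8.36 ± 0.10 in Py8119 tumours. Among 14 basal and myoepithelial genes 10 were lower and none higher (median -0.57). The laminin-332 chain Lamb3 and the hemidesmosome integrin Itgb4 fell by 2.01 and 1.99, Itga6 by 1.59 and smooth muscle actin Acta2 by 1.49. Of 10 milk protein genes 5 were lower, with Csn3, kappa-casein, at 6.41, 6.99, 7.74, 6.50 and 6.11 in the mixed tumours and 9.21, 7.45, 8.71, 8.76 and 9.50 in the Py117 tumours. A Py117 tumour reached into the mixed range, so the Csn3 groups overlapped (log2 difference -1.97 ± 0.32, adjusted p = 8.99e-05). Mfge8, a milk fat globule protein that bridges dying cells to phagocytes, fell by 1.35.

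Mesenchymal genes did not move as a block. Of 20 measured genes 10 were higher and 5 lower, with a median of 0.54. Higher, next to S100a4 and Cdh2, were the receptor tyrosine kinase Axl and the transcription factors Snai2 and Zeb1. Axl had signals of 11.49, 11.56, 11.51, 11.57 and 11.72 in mixed tumours 1 to 5, against 9.62, 10.15, 10.52, 9.89 and 9.96 in Py117 tumours 1 to 5, without overlap (log2 difference 1.54 ± 0.12, adjusted p = 2.98e-08). Snai2 was 1.31, Zeb1 1.17 and Vim, vimentin, 0.93 higher. The 5 lower genes included the collagen cross-linking enzyme Lox at 7.10 ± 0.86 in mixed and 9.76 ± 0.46 in Py117 tumours (log2 difference -2.65 ± 0.40, adjusted p = 3.93e-05) and the integrin Itgb3, lower by 2.18. Fibronectin and osteonectin were kept, Fn1 with an interval of 0.09 to 0.90 and Sparc with -0.36 to 0.02. Sparc is a Py8119-line gene in culture, yet it reached 11.68 in mixed and 11.84 in Py117 tumours. YAP and TEAD targets also split, 6 higher and 4 lower of 12. Ajuba rose by 1.26 beside Ankrd1 and Axl, while Ccn2 (CTGF) fell by 1.67 and Ccn1 (CYR61) was kept at 10.24 ± 0.34 in mixed and 10.13 ± 0.26 in Py117 tumours. Of the 5 TAM receptor and ligand genes, Axl was the only higher one and the other 4 were lower. The ligands Pros1 and Gas6 fell by 1.61 and 0.58 and the receptors Tyro3 and Mertk by 0.73 and 0.32, although the Mertk call was lost with the adipocyte term and without Py117 tumours 1, 4 and 5.

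**Figure D2:**
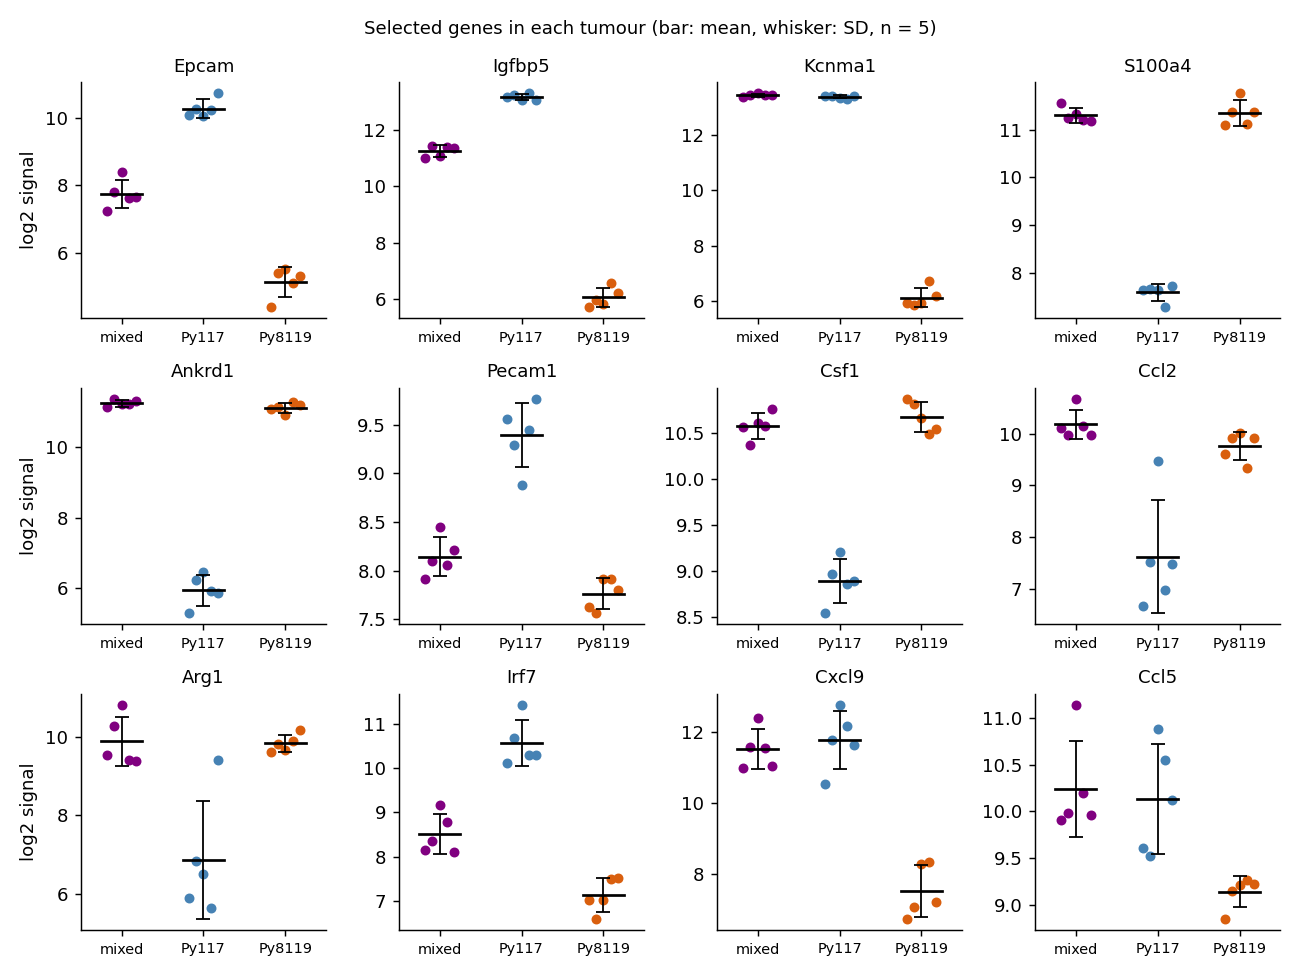
Log2 signal (y axis) of 12 genes in each mixed, Py117 and Py8119 tumour (points), with mean and SD (bars, n = 5 per group). Epcam and Igfbp5 lie between the parental tumours, S100a4, Ankrd1, Csf1, Ccl2 and Arg1 at the Py8119 level, Pecam1 near it, Irf7 between, and Kcnma1, Cxcl9 and Ccl5 overlap Py117 tumours.

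Most vascular and fibroblast genes were lower in mixed than in Py117 tumours. Of 20 endothelial genes 19 were lower and none higher (median -1.14). Against Py8119 tumours limma called none in either direction (median 0.24), and 7 were higher at an unadjusted p under 0.05. Pecam1, the endothelial adhesion molecule CD31, had signals of 7.91, 8.10, 8.45, 8.05 and 8.21 in mixed tumours 1 to 5, against 9.56, 9.29, 8.88, 9.44 and 9.76 in Py117 tumours 1 to 5. The groups were apart (log2 difference -1.25 ± 0.14, adjusted p = 1.89e-06). The apelin receptor Aplnr fell by 1.79, the sialomucin Emcn by 1.68, the angiopoietin receptor Tek by 1.67 and the junction protein Mmrn2 by 1.47. Ligands of the vascular endothelial growth factor family moved in opposite directions: Vegfa was at 8.89 ± 0.22 in mixed and 9.96 ± 0.27 in Py117 tumours (log2 difference -1.06 ± 0.14, adjusted p = 7.17e-06) and Vegfc at 8.73 ± 0.07 in mixed and 7.29 ± 0.17 in Py117 tumours (log2 difference 1.44 ± 0.10, adjusted p = 7.18e-09). Vegfc is a Py8119-line gene. Of 10 pericyte genes 8 were lower and 1, Pdgfrb, higher (by 0.57). Mcam, a Py117-line gene, fell by 1.37, Notch3 by 0.83 and Rgs5 by 1.35, the last of these a call lost with the adipocyte term. Of 19 fibroblast and matrix genes 17 were lower and 1 higher (median -1.27). Limma called none against Py8119 tumours, with 2 higher at an unadjusted p under 0.05. Dpt, dermatopontin, fell by 2.11, the elastic fibre genes Mfap5 and Loxl1 by 2.31 and 2.13. The exception was Ogn, osteoglycin, at 11.02, 10.72, 10.49, 10.71 and 10.89 in the mixed tumours and 8.07, 10.25, 9.73, 8.30 and 7.93 in the Py117 tumours, higher without overlap (log2 difference 1.91 ± 0.33, adjusted p = 1.89e-04).

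Fat was uneven among the Py117 tumours. The mean level of the 15 adipocyte genes was 6.22, 5.95, 5.79, 5.78 and 5.91 in mixed tumours 1 to 5, against 8.52, 6.17, 6.26, 7.71 and 8.62 in Py117 tumours 1 to 5. Py117 tumours 1, 4 and 5 were thus high and tumours 2 and 3 close to the mixed tumours. Of the list, 13 genes were lower in the mixed tumours, but only 3 were without Py117 tumours 1, 4 and 5. Adipoq, adiponectin, was at 5.48, 4.79, 4.29, 4.61 and 4.69 in the mixed tumours and 6.85, 4.14, 4.66, 5.85 and 7.45 in the Py117 tumours, overlapping and not called (log2 difference -1.02 ± 0.47, adjusted p = 0.103). Thrsp, a regulator of lipogenesis that is also made by mammary epithelium, was at 7.04, 6.90, 6.59, 7.34 and 7.29 in the mixed tumours and 10.85, 10.50, 10.44, 10.69 and 10.55 in the Py117 tumours and separated the groups fully (log2 difference -3.57 ± 0.21, adjusted p = 6.02e-10). Calls of single genes were also tested without these 3 tumours and with the adipocyte mean as a term of the fit. The endothelial, fibroblast and epithelial counts lower were 19, 17 and 23 with all tumours and 16, 16 and 20 without them.

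Markers of further tissues of the implantation site were mostly not called, apart from those of nerve. Skeletal muscle had 0 higher and 2 lower of 12 genes, against 19.2% and 16.9% of all genes. Acta1 was at 6.64 ± 0.19 in mixed and 6.48 ± 0.22 in Py117 tumours. Keratinocyte genes had 1 higher (none without any 1 of 5 single tumours) and 1 lower of 10, and Krt1, a keratin of skin, was at 5.55 ± 0.29 in mixed and 5.74 ± 0.16 in Py117 tumours, near background. The lower one, Calml3, a calmodulin-like protein of epithelia, fell by 1.52. Nerve and Schwann cell genes had 2 higher and 2 lower of 6, against 19.2% and 16.9% of all genes. The higher ones were Ncam1, a Py8119-line gene, up by 1.75, and Cdh19, up by 1.45 with a Py117 level under background.

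Many macrophage and monocyte genes rose in the mixed tumours, and so did ligands of monocytes and macrophages. Of 25 macrophage and monocyte genes 14 were higher and 3 lower (median 0.41), and 9 were higher with the adipocyte term. Limma called none against Py8119 tumours, with 4 higher at an unadjusted p under 0.05. Arg1, the arginase of alternatively activated macrophages, had signals of 9.55, 10.27, 10.82, 9.41 and 9.39 in mixed tumours 1 to 5, against 5.89, 6.83, 6.51, 5.63 and 9.41 in Py117 tumours 1 to 5. Py117 tumour 5 alone reached the mixed range, so the Arg1 groups overlapped, and the mean was 8.18-fold higher in the mixed tumours (log2 difference 3.03 ± 0.51, adjusted p = 1.16e-04). Without Py117 tumour 5 the log2 difference was 3.67. The scavenger receptor Msr1 rose by 1.99 and the integrin Itgam (CD11b) by 1.24. Csf1r, the receptor for CSF1, rose by only 0.41 (adjusted p = 0.00987), a call lost with the adipocyte term. In this list 12 of 25 genes were kept (86.9% of all genes were), among them C1qa at 10.59 ± 0.17 in mixed and 10.28 ± 0.23 in Py117 tumours and Cd68 at 10.64 ± 0.22 in mixed and 10.33 ± 0.29 in Py117 tumours. C1qa was called higher when arrays were centred on their medians, with array weights, with a robust prior and with low-signal genes left out. It was also called higher with a term for the replicate number (the replicate block) and without mixed tumour 1 or Py117 tumour 3. Ly6c2, a marker of inflammatory monocytes, went the other way at 7.16, 7.28, 8.88, 7.97 and 7.18 in the mixed tumours and 8.04, 9.11, 10.41, 9.30 and 8.26 in the Py117 tumours. The Ly6c2 groups separated little relative to their spread (log2 difference -1.33 ± 0.42, adjusted p = 0.0189), and the call was lost without mixed tumour 1, mixed tumour 5 or Py117 tumour 3.

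Of the 8 genes of the colony-stimulating factor axis 4 were higher and none lower. Csf1, the macrophage growth factor, was at 10.56, 10.36, 10.61, 10.57 and 10.75 in mixed tumours 1 to 5, against 8.54, 8.96, 9.21, 8.86 and 8.89 in Py117 tumours 1 to 5. All mixed values exceeded all Py117 values (log2 difference 1.68 ± 0.12, adjusted p = 5.01e-09). Il34, the other ligand of the CSF1 receptor, rose by 1.89 (adjusted p = 1.20e-10), and Csf2 was called higher with both means under background. Csf3, the neutrophil growth factor, is a Py117-line gene in culture, at 5.53 ± 0.49 in Py8119 and 9.01 ± 0.20 in Py117 culture (SD, n = 3 each), but in tumours it was at background, at 5.22 ± 0.22 in mixed and 5.22 ± 0.13 in Py117 tumours.

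Chemokines moved in both directions. Of 29 measured genes 8 were higher and 4 lower, against 19.2% and 16.9% of all genes (2 lower without mixed tumour 1, mixed tumour 4 or Py117 tumour 1). The monocyte ligands Ccl2, Ccl7 and Ccl12 were among the higher ones. Ccl2 had signals of 10.12, 9.98, 10.68, 10.16 and 9.98 in mixed tumours 1 to 5, against 6.66, 7.51, 9.47, 6.96 and 7.47 in Py117 tumours 1 to 5, a 5.94-fold increase with no overlap (log2 difference 2.57 ± 0.36, adjusted p = 1.85e-05). Ccl12 and Ccl7 rose by 2.27 and 2.23, and Ccl17, a ligand of CCR4, by 1.83 (adjusted p = 0.00378). Ccl11, eotaxin, named after its value was seen, fell by 1.66. Cxcl16 and Ccl9 were kept, with intervals of -0.54 to -0.01 and 0.07 to 0.88. The T cell attracting ligands Cxcl9 and Cxcl10 are described with the interferon genes. Among neutrophil genes 3 were higher and 1 lower of 14, shares near or below those of all genes (19.2% and 16.9%). Mmp9, gelatinase B, rose by 2.49 (adjusted p = 4.15e-08), while the neutrophil receptors Csf3r and Cxcr2 were kept at 7.002 ± 0.27 in mixed and 7.15 ± 0.34 in Py117 tumours and 6.83 ± 0.20 in mixed and 6.78 ± 0.35 in Py117 tumours. Of 15 dendritic cell genes 3 were higher and 4 lower, also near the shares of all genes, with Fscn1, fascin, up by 1.72, Itgax (CD11c) down by 1.22 and Irf8 kept at 8.13 ± 0.35 in mixed and 7.88 ± 0.39 in Py117 tumours. Limma called none of 10 mast cell and eosinophil genes, 1 was lower at an unadjusted p under 0.05, and 5 were higher without Py117 tumours 1, 4 and 5.

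**Figure D3:**
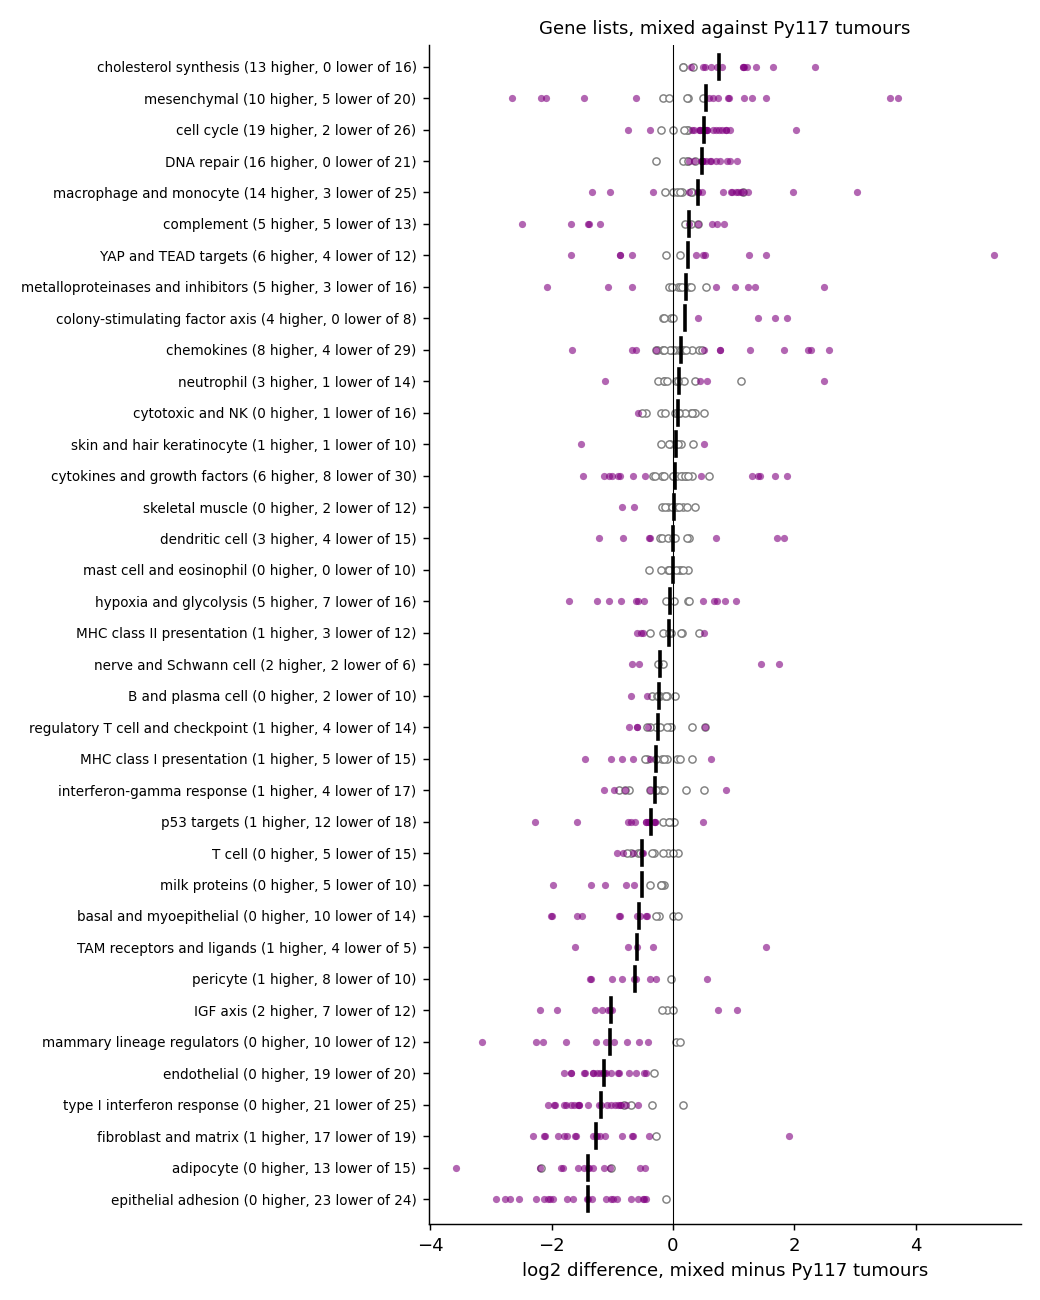
Log2 difference (x axis, mixed minus Py117 tumours) of each measured gene in 37 gene lists, ordered by list median (vertical bars). Filled points were called and open points were not. Epithelial adhesion (median -1.41), adipocyte (-1.40), fibroblast (-1.27), type I interferon (-1.18) and endothelial (-1.14) lists lie furthest left, and cholesterol synthesis (0.77) lies furthest right.

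Most type I interferon genes fell, and 12 of 17 interferon-gamma genes were not called, as were 14173 of all 22180 genes. Of 25 type I interferon response genes 21 were lower and none higher (median -1.18), while of 17 interferon-gamma response genes 4 were lower and 1 higher (median -0.30). The shares of all genes were 16.9% lower and 19.2% higher. Of these 17 genes 4 were kept, against 86.9% of all genes, and 9 were neither called nor kept. Parts of both lists remained above Py8119 tumours: 11 of 25 and 10 of 17 genes were higher in mixed than in Py8119 tumours, against 1.61% of all genes, with medians of 0.82 and 1.64. The first of these counts was 6 without Py8119 tumour 1 and 7 without Py8119 tumour 2 or mixed tumour 3, and the second was 9 or 10 whichever mixed or Py8119 tumour was left out. The difference between the lists was not tested. The count of interferon-gamma genes lower was 1 without mixed tumour 1 or 5 and 2 without Py117 tumour 3. It was 8 without mixed tumour 3 or Py117 tumour 1, and 7 without Py117 tumours 1, 4 and 5. With the replicate block it was also 7.

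Promoters of both lists hold the core of the interferon-stimulated response element, searched on both strands as GAAA, any 2 bases and GAAA again, which reads TTTC, 2 bases and TTTC on the other strand. In RefSeq promoters on GRCm38.p6 it occurred in 10 of 17 type I genes with a promoter (58.8%) and in 8 of 11 interferon-gamma genes (72.7%), against 3.4% of all promoters and 3.9% of measured genes with one. Within the interferon-gamma list it was present in 3 of 3 genes that were lower and in 5 of 8 that were not, so these letters did not separate them. The windows, with the matches in capitals, are those of Ifit1 and Isg15 from the type I list, both lower, and of Irgm2, Igtp and Cxcl10 from the interferon-gamma list, of which only Irgm2 was lower. Isg15 and Igtp were named after their values were seen. Irgm2 and Igtp are related GTPase genes, and their promoter windows share 48 of 50 bases. Sequence outside these windows was not compared.
Ifit1 (chr19:34640765-34640814, plus strand): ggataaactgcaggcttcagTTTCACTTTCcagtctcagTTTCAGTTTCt
Isg15 (chr4:156200867-156200916, minus strand): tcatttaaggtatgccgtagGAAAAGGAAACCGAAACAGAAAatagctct
Irgm2 (chr11:58214893-58214942, plus strand): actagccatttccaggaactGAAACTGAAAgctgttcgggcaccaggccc
Igtp (chr11:58199502-58199551, plus strand): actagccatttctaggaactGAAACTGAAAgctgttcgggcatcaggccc
Cxcl10 (chr5:92349073-92349122, minus strand): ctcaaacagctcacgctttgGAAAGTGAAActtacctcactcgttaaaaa

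Irf7, the transcription factor that amplifies the type I response, had signals of 8.16, 8.35, 9.16, 8.78 and 8.10 in mixed tumours 1 to 5, against 10.12, 10.68, 11.43, 10.29 and 10.31 in Py117 tumours 1 to 5. No mixed tumour reached a Py117 tumour (log2 difference -2.05 ± 0.25, adjusted p = 3.88e-06), and Py8119 tumours were lower still, at 7.13 ± 0.39 (difference 1.38 ± 0.25, adjusted p = 0.00440). Ifit1, an antiviral RNA-binding protein, was at 8.20 ± 0.40 in mixed, 10.14 ± 0.65 in Py117 and 6.91 ± 0.46 in Py8119 tumours (log2 difference -1.94 ± 0.28, adjusted p = 2.44e-05). The nucleotide kinase Cmpk2 fell by 1.95 and the RNA sensor Ifih1 (MDA5) by 1.79. Isg15, the ubiquitin-like modifier, fell by 0.96 (adjusted p = 0.0126). Ifit2 and Ifit3 were kept, with intervals of -0.69 to -0.01 and -0.01 to 0.34. For Ifit3 the 3 tumour groups lay close together, at 7.40 ± 0.03 in mixed, 7.23 ± 0.13 in Py117 and 7.20 ± 0.12 in Py8119 tumours.

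Cxcl9, the CXCR3 ligand induced by interferon-gamma, had signals of 10.98, 11.58, 12.39, 11.54 and 11.05 in mixed tumours 1 to 5, against 10.52, 11.78, 12.76, 12.18 and 11.64 in Py117 tumours 1 to 5. The ranges overlapped almost completely, and the difference was -0.27 with a 95% interval of -1.07 to 0.54 (adjusted p = 0.630). Py8119 tumours had 6.73, 7.06, 8.29, 8.33 and 7.20, below all others (mixed minus Py8119 3.99 ± 0.38, adjusted p = 5.44e-06). In culture Cxcl9 was near background, at 5.63 ± 0.79 in Py8119 and 6.00 ± 0.40 in Py117 culture (SD, n = 3 each). Cxcl10 behaved alike, at 9.74 ± 0.66 in mixed, 9.53 ± 1.13 in Py117 and 7.56 ± 0.17 in Py8119 tumours, with an interval of -0.65 to 1.07 for mixed minus Py117, which is too wide to call it kept. Irgm2 fell by 1.14 (adjusted p = 0.00420) and Igtp had a difference of -0.89 that was not called (adjusted p = 0.0533). Igtp was called lower under some alternatives, among them the replicate block. Array probes can bind RNA of related genes, which was not tested for Irgm2 and Igtp. The guanylate-binding protein genes Gbp3 and Gbp7 were lower by 0.97 and 0.79, calls that were lost without mixed tumour 1, mixed tumour 5 or Py117 tumour 3, and for Gbp7 also without mixed or Py117 tumour 4. Gbp8, another member, was kept at 7.81 ± 0.81 in mixed, 7.79 ± 1.09 in Py117 and 5.06 ± 0.29 in Py8119 tumours (interval -0.87 to 0.93). Irf1, the factor through which interferon-gamma induces many of these genes, was the higher gene of the list, at 9.45 ± 0.29 in mixed and 8.58 ± 0.62 in Py117 tumours (log2 difference 0.87 ± 0.22, adjusted p = 0.00457), and the call was lost with the adipocyte term and without Py117 tumours 1, 4 and 5. Individual tumours within the mixed and Py117 groups differed more in this list than the means of those groups did. The list mean was 7.66, 8.11, 9.001, 8.14 and 7.85 in mixed tumours 1 to 5 and 7.60, 8.27, 9.62, 8.62 and 8.34 in Py117 tumours 1 to 5. Py8119 tumours lay lower, at 6.26 to 6.67. The third tumour was highest in both the mixed and the Py117 group.

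**Figure D4:**
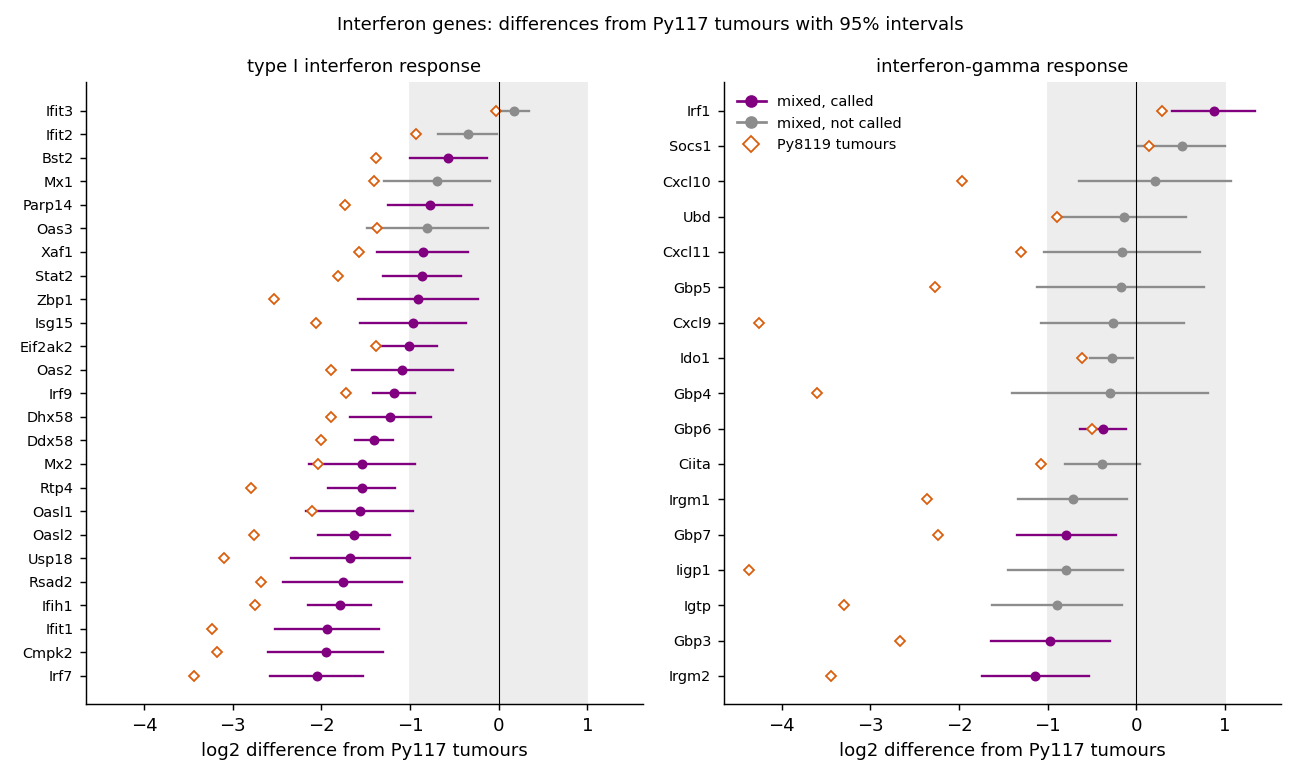
Log2 difference from Py117 tumours (x axis) of the genes of the type I interferon list (left panel, 25 genes) and the interferon-gamma list (right panel, 17 genes) for mixed tumours (circles with 95% intervals, filled purple where called and grey where not) and Py8119 tumours (open diamonds). The shaded band spans 1 log2 unit on either side of 0. Mixed tumours lie to the right of Py8119 tumours for nearly every gene, and the points of Cxcl9 and Cxcl10 lie inside the band.

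Class I antigen presentation genes were lower in part, and 4 of 12 class II genes were called. Of 15 MHC class I genes 5 were lower and 1 higher, against 16.9% and 19.2% of all genes, and 9 were kept (86.9% of all genes were). The higher call was lost without any 1 of 8 single tumours. The count lower was 3 without mixed tumour 1 or 5 or Py117 tumour 3, 4 or 5. B2m, the light chain of class I, was at 13.15 ± 0.10 in mixed, 13.33 ± 0.17 in Py117 and 12.92 ± 0.05 in Py8119 tumours (interval -0.36 to 0.01). The non-classical class I gene H2-T23 fell by 1.44 and the peptide transporter genes Tap1 and Tap2 by 1.02 and 0.84. Tap1 was nevertheless above Py8119 tumours (difference 1.61 ± 0.25, adjusted p = 0.00109). Of 12 MHC class II genes 3 were lower, 1 was higher and 11 were kept, near the share of all genes. H2-Aa, a class II alpha chain, had signals of 9.58, 10.23, 10.57, 10.18 and 9.82 in mixed tumours 1 to 5, against 10.45, 10.14, 10.60, 10.89 and 10.81 in Py117 tumours 1 to 5. The ranges overlapped (log2 difference -0.50 ± 0.17, adjusted p = 0.0275), and the call was lost with the adipocyte term, without Py117 tumours 1, 4 and 5, and without mixed tumour 1 or 5 or Py117 tumour 4 or 5, as were those of H2-Ab1 and H2-Eb1. Without any of these tumours no class II gene was called lower. H2-Aa was above Py8119 tumours (difference 1.14 ± 0.17, adjusted p = 6.69e-04). In the class II list 5 genes exceeded Py8119 tumours, and 3 did without any single mixed or Py8119 tumour other than mixed tumour 1. In the class I list 8 did, and 3 without mixed tumour 2 or 3 or Py8119 tumour 1, 2 or 3.

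T cell genes were lower in part, and 1 cytotoxic gene was. Of 15 T cell genes 5 were lower and none higher (median -0.51), against 16.9% and 19.2% of all genes. The count lower was 8 without Py117 tumour 1, 9 without Py117 tumour 2 and 1 without Py117 tumours 1, 4 and 5. Cd4 had signals of 6.25, 6.11, 6.64, 6.05 and 6.37 in mixed tumours 1 to 5, against 7.37, 6.91, 6.35, 7.96 and 7.48 in Py117 tumours 1 to 5. The groups overlapped only through Py117 tumour 3 (log2 difference -0.93 ± 0.21, adjusted p = 0.00187). This call was lost with the adipocyte term and without Py117 tumours 1, 4 and 5. Cd8a was not called, at 6.09, 6.54, 6.89, 6.67 and 6.30 in the mixed tumours and 6.69, 5.91, 7.20, 8.06 and 7.40 in the Py117 tumours (log2 difference -0.55 ± 0.28, adjusted p = 0.133), while Cd8b1 was lower by 0.82 with the same losses as Cd4. The list mean was 6.27, 6.42, 6.93, 6.44 and 6.44 in mixed tumours 1 to 5, against 6.70, 6.48, 6.77, 7.54 and 7.29 in Py117 tumours 1 to 5. The Py117 tumours with high T cell means were 4 and 5, which also carried high adipocyte means. Py117 tumour 1 had a high adipocyte mean too, at 8.52, but its T cell mean of 6.70 was below that of tumour 3. The part of fat pad tissue in these T cell values was not tested.

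Of 16 cytotoxic and NK cell genes 1 was lower, none was higher and 12 were kept (median 0.09), against 16.9%, 19.2% and 86.9% of all genes. The lower one, Gzmk, is near background in the mixed tumours (5.35 ± 0.16 in mixed and 5.93 ± 0.31 in Py117 tumours), and 3 were lower without mixed tumour 3 or Py117 tumour 2. Ccl5, a chemokine of activated T and NK cells, had signals of 9.91, 9.99, 11.14, 10.20 and 9.96 in mixed tumours 1 to 5, against 9.61, 9.52, 10.88, 10.55 and 10.12 in Py117 tumours 1 to 5. The groups overlapped (interval -0.42 to 0.64), and Py8119 tumours were lower (mixed minus Py8119 1.10 ± 0.25, adjusted p = 0.0268), a call lost without mixed tumour 3 or 4 or Py8119 tumour 1, 2, 3 or 5, although Ccl5 is higher in Py8119 than in Py117 culture, at 9.24 ± 0.28 in Py8119 and 6.31 ± 0.21 in Py117 culture (SD, n = 3 each). Nkg7, a granule protein, was at 7.68 ± 0.36 in mixed, 8.13 ± 0.53 in Py117 and 6.998 ± 0.13 in Py8119 tumours (interval -0.89 to -0.01). It was not called, but was called lower with the replicate block and without mixed tumour 3 or Py117 tumour 2. In the list of 14 regulatory T cell and checkpoint genes, 4 fell, 1 was higher and 10 were kept, against 16.9%, 19.2% and 86.9% of all genes. Without Py117 tumours 1, 4 and 5 there were 2 lower and 2 higher. Foxp3, the factor of regulatory T cells, was at 5.83, 5.83, 5.86, 6.05 and 5.86 in the mixed tumours and 6.35, 6.43, 6.20, 7.41 and 6.68 in the Py117 tumours and fell (log2 difference -0.73 ± 0.18, adjusted p = 0.00333), a call lost with the adipocyte term. Cd274, PD-L1, was at 8.48 ± 0.80 in mixed, 8.17 ± 0.73 in Py117 and 7.27 ± 0.07 in Py8119 tumours, with an interval of -0.40 to 1.02 that leaves its direction unsettled, and Havcr2, TIM-3, was kept at 8.02 ± 0.18 in mixed and 8.12 ± 0.47 in Py117 tumours. B and plasma cell genes showed 2 lower of 10, near the 16.9% of all genes (4 without Py117 tumours 1, 4 and 5). These were Xbp1, lower by 0.69, and Ighm, by 0.43. The Ighm call was lost with the adipocyte term, without Py117 tumours 1, 4 and 5, and when any of 7 single tumours was left out, among them each mixed tumour.

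**Figure D5:**
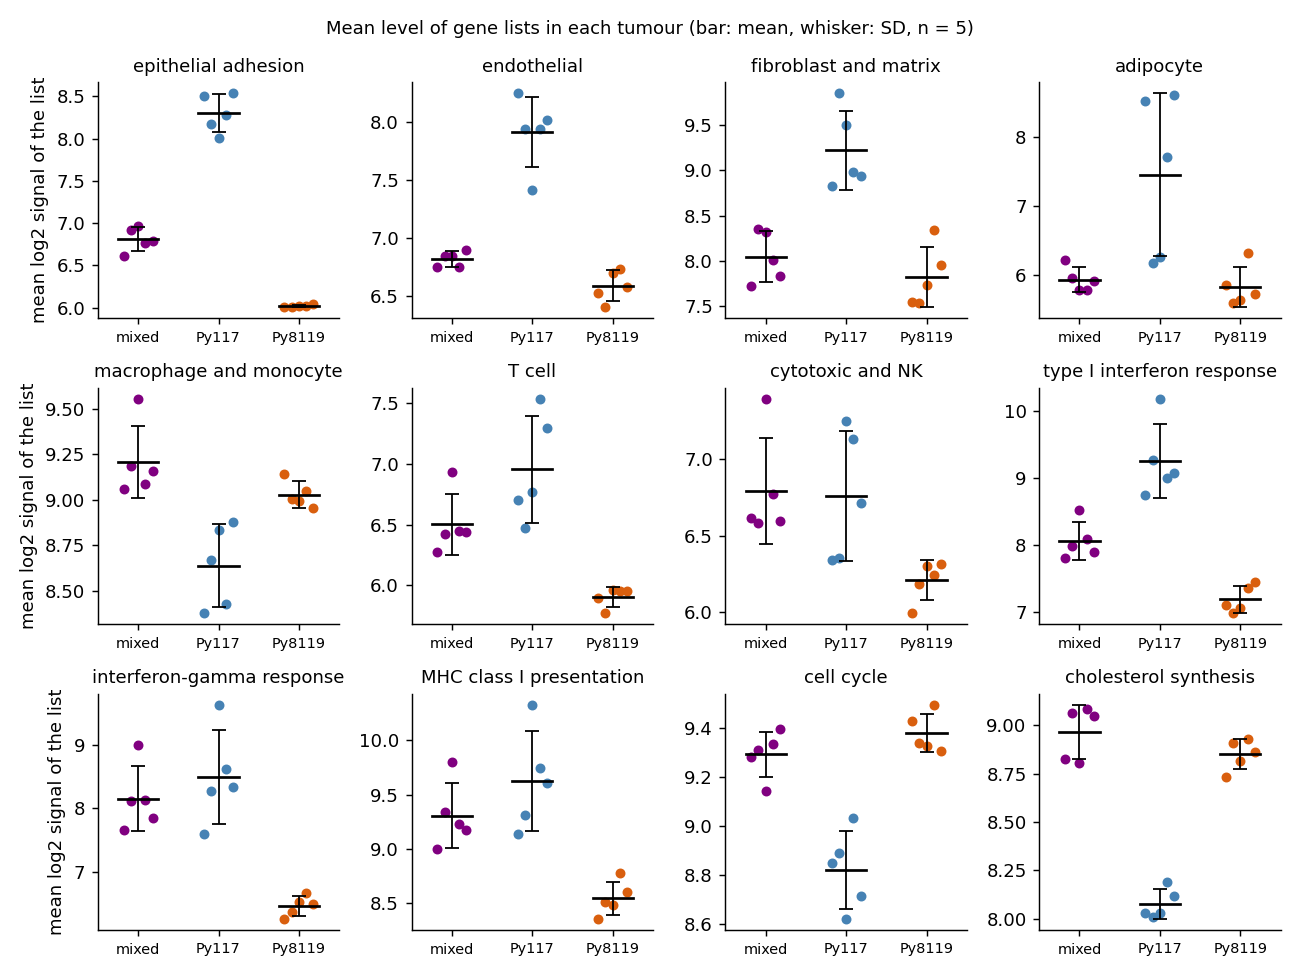
Mean log2 signal (y axis) of 12 gene lists in each mixed, Py117 and Py8119 tumour (points), with group mean and SD (bars, n = 5). Epithelial adhesion, endothelial and fibroblast means separate mixed from Py117 tumours without overlap, whereas T cell, cytotoxic and interferon-gamma means overlap between them, and 3 Py117 tumours stand high for adipocyte genes.

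Kept genes were ranked by how far Py8119 tumours lay below Py117 tumours, which is a description because the rule used it. The first 8 were Kcnma1, Gbp8, Calhm6, Mpeg1 (perforin-2 of macrophages), H2-Aa, Fgl2, Ms4a4c and Slamf8. Kept bounds a difference and does not show that there was none: H2-Aa was called lower, as was Mpeg1 (log2 difference -0.52, adjusted p = 0.0495), whose call was lost without any 1 of 7 single tumours. Slamf8 was at 8.37 ± 0.62 in mixed, 8.15 ± 0.73 in Py117 and 6.55 ± 0.36 in Py8119 tumours, Fgl2 at 9.16 ± 0.67 in mixed, 9.40 ± 0.81 in Py117 and 7.65 ± 0.07 in Py8119 tumours and Mpeg1 at 10.35 ± 0.39 in mixed, 10.87 ± 0.43 in Py117 and 9.08 ± 0.22 in Py8119 tumours. Calhm6 was at 6.70 ± 0.56 in mixed, 6.98 ± 0.88 in Py117 and 5.16 ± 0.23 in Py8119 tumours and Ms4a4c at 6.39 ± 0.43 in mixed, 6.66 ± 0.71 in Py117 and 4.93 ± 0.66 in Py8119 tumours. In culture of either line Gbp8, Calhm6, Mpeg1 and Ms4a4c were at background, between 3.50 and 5.22. Of the Py117-line genes, 57 of 313 were kept (86.9% of all genes were), and 38 of these 57 were called between the parental tumours, 6 of them with a difference of at least 1 log2 unit.

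Most cell cycle and DNA repair genes rose in the mixed tumours. Of 26 cell cycle genes 19 were higher and 2 lower (median 0.51), and of 21 DNA repair genes 16 were higher and none lower (median 0.48). Limma called none of either list against Py8119 tumours, with 2 higher and 4 lower at an unadjusted p under 0.05 over both lists. The sizes were modest: Mcm2 of the replicative helicase rose by 0.88, Foxm1 by 0.87, Kif20a by 0.94 and Brca2 by 1.06. Mki67, the proliferation antigen, was at 10.36, 10.44, 10.37, 10.25 and 10.26 in the mixed tumours and 10.67, 10.59, 9.91, 10.73 and 10.73 in the Py117 tumours, overlapping and not called (interval -0.49 to 0.11). Py117 tumour 3 alone did not lie above every mixed tumour, and without it Mki67 was called lower (log2 difference -0.34). Cdkn2a, which encodes p16INK4a and p19ARF, had the largest increase of these genes, at 10.73 ± 0.12 in mixed and 8.70 ± 0.30 in Py117 tumours (log2 difference 2.04 ± 0.12, adjusted p = 7.01e-10), and Cdkn1a, p21, fell by 0.74 (adjusted p = 0.00122). Among p53 targets 12 of 18 were lower and 1 was higher. The desmosomal p53 target Perp fell by 2.28 and Trp53inp1 by 1.57, and both stayed above Py8119 tumours, Trp53inp1 not without mixed tumour 2 or Py8119 tumour 2.

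Cholesterol synthesis genes rose as a group, with 13 of 16 higher and none lower (median 0.77). The shares of all genes, 19.2% higher and 16.9% lower, apply to each list in this paragraph. Msmo1, a sterol methyl oxidase, had signals of 9.34, 9.52, 9.34, 9.57 and 9.30 in mixed tumours 1 to 5, against 6.93, 7.0, 7.07, 7.11 and 7.22 in Py117 tumours 1 to 5, without overlap (log2 difference 2.35 ± 0.09, adjusted p = 4.19e-12). Fdps rose by 1.66, Cyp51 by 1.37 and Sqle, squalene epoxidase, by 1.22, and the regulator Srebf2 rose by 0.63 while being kept. Hypoxia and glycolysis genes split, 5 higher and 7 lower of 16, with 2 higher without Py117 tumours 1, 4 and 5. Egln3, an oxygen-sensing prolyl hydroxylase, fell by 1.71 and the carbonic anhydrase Car9 by 1.24, while the glucose transporter Slc2a1 and the pyruvate kinase Pkm were kept. Of 13 complement genes 5 were higher (2 without Py117 tumours 1, 4 and 5) and 5 lower. The C1 inhibitor Serping1 fell by 2.49, the decay factor Cd55 by 1.68 (its mixed level was under background) and C4b by 1.40. Of 12 IGF axis genes 7 were lower and 2 higher. Igfbp2 and Igfbp7 fell by 2.19 and 1.28, and the receptor Igf1r rose by 0.74. Of 16 metalloproteinase and inhibitor genes 5 were higher and 3 lower, with Mmp11 and the urokinase receptor Plaur up by 1.35 and 1.24 and Mmp14 kept at 11.17 ± 0.14 in mixed and 11.05 ± 0.28 in Py117 tumours. Of 30 cytokines and growth factors 6 were higher, near the share of all genes, and 8 lower. Il33, an alarmin, was at 8.45 ± 0.91 in mixed and 9.93 ± 0.94 in Py117 tumours and lower (log2 difference -1.48 ± 0.40, adjusted p = 0.00746), a call lost with the adipocyte term and without Py117 tumours 1, 4 and 5, and Tgfb1 was kept at 9.63 ± 0.09 in mixed and 9.49 ± 0.14 in Py117 tumours.

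Few genes left the range of the parental tumours. In 23 of 22180 genes (0.104%) the mixed tumours were called in the same direction against both, 8 above and 15 below. Xcl1, the lymphotactin of cytotoxic cells, had signals of 8.85, 8.58, 9.48, 8.66 and 8.18 in mixed tumours 1 to 5, against 7.83, 7.53, 8.36, 8.30 and 7.83 in Py117 tumours 1 to 5 and 6.93, 7.91, 8.20, 7.47 and 7.62 in Py8119 tumours. Xcl1 values of mixed and Py117 tumours overlapped (log2 difference 0.78 ± 0.24, adjusted p = 0.0164), and the call was lost with the adipocyte term and without Py117 tumours 1, 4 and 5. Against Py8119 tumours it was lost without mixed tumour 3 or Py8119 tumour 1. Cd48, a receptor ligand of leukocytes, was at 8.15 ± 0.19 in mixed, 7.72 ± 0.21 in Py117 and 7.48 ± 0.11 in Py8119 tumours and Pik3cd, a leukocyte phosphoinositide kinase subunit, at 7.40 ± 0.12 in mixed, 6.98 ± 0.16 in Py117 and 7.03 ± 0.05 in Py8119 tumours. Abcg3 and the chaperone component Sdf2l1 were higher than in Py117 tumours by 0.42 and 0.36. Below both parents, Per1, a circadian repressor that glucocorticoids induce, was at 8.45, 8.34, 7.89, 8.47 and 8.64 in the mixed tumours and 10.08, 10.06, 9.97, 10.49 and 10.17 in the Py117 tumours, without overlap, and at 10.55, 9.14, 8.95, 9.33 and 9.84 in Py8119 tumours (log2 difference -1.80 ± 0.23, adjusted p = 7.58e-06). Depp1 and Tsc22d3 (GILZ), also known as glucocorticoid-responsive genes, fell by 1.39 and 0.82. The time of day at which tumours were taken is not given in the sources used here. The calls of Depp1, Tsc22d3, Fat3, Matn1, Pik3cd, Sdf2l1 and Xcl1 against Py8119 tumours were lost when certain single tumours were left out, and those of Per1, Cd48 and Abcg3 were not. Against Py117 tumours, the calls of Cd48 and Sdf2l1 were lost with the adipocyte term, and that of Sdf2l1 also without Py117 tumours 1, 4 and 5. Fat3 and Matn1 were below both parents at signals near background, 4.39 ± 0.07 in mixed and 4.88 ± 0.38 in Py117 tumours and 4.07 ± 0.21 in mixed and 4.57 ± 0.02 in Py117 tumours.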

How the data were processed

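RNA was measured on Affymetrix mouse arrays. The deposited values are log2 signals, one per probe set and array. The submitters' processing notes name RMA and limma, with no versions. RMA is a method that corrects background, sets all arrays to one distribution and summarises probes, so a change in total RNA per tumour is not visible, and bright signals can be compressed on arrays.

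Of 41345 probe sets, 23521 carried 1 gene symbol, 1814 several and 16010 none. Those with 1 symbol gave 22180 genes, and for the 1082 genes with several probe sets the one with the highest mean over all arrays was used. The 15 tumour arrays were fitted together in limma 3.58.1 (R 4.3.3), and p-values were adjusted over all genes by the Benjamini-Hochberg method. The 6 culture arrays were fitted apart, and line genes were called there with a log2 difference of at least 2. For the position, a median was taken over line genes whose parental tumours were at least 1 log2 unit apart on the same side as the cultures. The 37 gene lists held 582 measured entries of 634. On simulated data with 22180 genes, the fit of mixed against Py117 tumours called 46.3, 95.5 and 98.5% of genes changed by 0.5, 1 and 2 log2 units. The simulation changed only 67, 67 and 66 genes and gave all groups the same spread. In the data 36.1% of genes were called, so these rates need not hold there.

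The comparison, the gene lists and the genes were chosen with earlier results of these data known, and so support nothing independently. Genes named are the 10 with the largest difference each way without overlap (other than predicted, small RNA, receptor and antigen segment genes), the 6 line genes of each side with the largest culture difference, up to 4 called and 2 kept genes of each list, 8 kept genes with the largest gap between the parental tumours, up to 5 genes each way outside both parents, and 26 further genes that the rule lists by name. Ccl11, Isg15, Igtp, Fst and Mir5103 were added after their values were seen. Promoters are RefSeq's, on GRCm38.p6. The labels give no batch, and depth has no counterpart on arrays, where the number of tumours limits precision. Alternatives changed the normalisation, filter, probe set rule, variance prior, weights, arrays fitted, replicate block, threshold and fat covariate. The fits without Py117 tumours 1, 4 and 5, and those leaving out single tumours against Py8119 tumours, were chosen after seeing the data.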

Additional observations from a re-analysis of the deposited data

Results flagged for a closer look

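Each group of 5 tumours was searched for a tumour whose gap to its nearest neighbour took more than 0.71 of the group's range (Dixon's limit). Chance gives about 1 in 20 groups, and 31 of 446 (6.95%) were past the limit. Mixed tumour 3 was the most frequent. It was high for Ccl2 (10.68), Ccl5 (11.14), Ifit1 (8.92) and Ms4a4c (7.15), and for the means of the T cell (6.93), cytotoxic and NK (7.39), macrophage and monocyte (9.55) and complement (8.38) lists. It was also apart for Aplnr (5.79), Elf5 (5.45) and Igf1r (9.13).

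Mixed tumour 1 was apart for Esrp1 (7.32), Foxa1 (6.85), Plaur (8.25) and the means of the mammary lineage regulators (6.69) and the IGF axis (8.03). Mixed tumour 4 was apart for Foxp3 (6.05) and the keratinocyte mean (5.59), and mixed tumour 5 for the pericyte mean (6.76).

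Py117 tumour 3 was apart for H2-T23 (10.70), Brca2 (5.75), Dsp (9.03) and Mki67 (9.91). Py117 tumour 2 was apart for Acta2 (10.18), Mmp11 (6.63) and the nerve and Schwann cell mean (6.39), tumour 5 for Egln3 (12.38) and Krt8 (10.49), tumour 4 for Igfbp7 (11.47) and S100a4 (7.27), and tumour 1 for Brinp3 (4.75). All values are log2 signals or means of them.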

How the results depend on the processing

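The mixed and Py117 tumours differed in between 5768 and 8684 genes under all alternatives, and in 7160 to 8136 when 1 tumour was left out. The replicate block gave 7811 genes against 8007 without it. Same-numbered mixed and Py117 tumours had residual correlations between -0.05 and 0.26. The labels tie the numbers to no animal or day and not every correlation was over 0.1, so the numbers were not taken as pairs, although 4 of 5 mixed tumours correlated best with their own number. The counts of line genes follow the culture threshold: with 1 log2 unit, 464 of 558 Py8119-line genes were higher and 761 of 938 Py117-line genes lower, and with 3 log2 units 29 of 31 and 128 of 139. With a bound of 0.5 in place of 1, 17 Py117-line genes were kept. The position was 75.4% on the log2 scale. The median of the adipocyte list was 0.0901 with its own mean as a term (-1.40 without). The median of the nerve and Schwann cell list was 0.75 with genes of low signal left out (-0.21 with them), that of the regulatory T cell and checkpoint list 0.0506 without Py117 tumours 1, 4 and 5 (-0.25 with them), and that of the chemokines ran from -0.0542 to 0.29 as single tumours were left out (0.14 with all). Of 146 genes called in the text, 126 kept the call under every alternative with an adjusted p of 0.05. The call was lost for 15 at an adjusted p of 0.01, 16 with the adipocyte term, 11 without Py117 tumours 1, 4 and 5 and 1, Ighm, under the replicate block. The block brought calls for C1qa, Ccl9, Igtp and Nkg7, and interferon-gamma genes called lower were 7 in place of 4. Of 7671 recomputed values for single genes and lists, 7254 kept their side of the threshold or moved little, 257 moved further, 98 lost and 58 gained a call and 4 reversed. Counts of 0 to 2 called genes in small lists moved by 1 or 2 genes when single tumours were left out. The causes of these shifts were not tested. Values near background, under 5.31, bound rather than measure a difference, and signals near 13.6 have little room to rise.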
